A study of Mus musculus with 6 samples.

Results

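The kinase Lck, its relative Fyn, the enzymes and adaptor that switch both on and off, and the CD8 and CD4 coreceptors were followed as a group of 10 genes, chosen by gene symbol from the 55536 genes of the deposited table. All 10 were found, and all 10 passed the filter on low counts. Bulk RNA came from cultured T cells taken from lymph nodes of OT-I mice and exposed for 2 h to disulfiram (DSF, 3 libraries), a thiol-reactive drug against alcohol dependence, or to its solvent dimethyl sulfoxide (DMSO, 3 libraries). The OT-I transgene encodes a receptor for an ovalbumin peptide on MHC class I, which directs most mature T cells to the CD8 lineage, and the labels give the genotype of both groups as wildtype. Both groups were cultured in complete RPMI with fetal bovine serum, 2-mercaptoethanol and NEAA. Age, sex, the concentration of DSF and any stimulation are not given in the labels. The titles call the 3 libraries of a group biological replicates, but no label ties one to an animal or a culture. The p-values thus set a group difference against variation between libraries, whatever unit a library stands for. Library totals ran from 18082264 to 21893720 counts, and Pag1, the lowest member but Cd4, had 507 counts or more in every library. Directions rest on reading the deposited group codes DF and DO as DSF and DMSO.

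Lck is a Src-family tyrosine kinase that rides on the cytoplasmic tails of CD8 alpha and CD4 and phosphorylates the signalling chains of the T cell receptor. Fyn shares this task in part. Both are held inactive when Csk phosphorylates a tyrosine in their C-terminal tail, and Csk is brought to the membrane by the adaptor PAG, the product of Pag1. The receptor phosphatase CD45, the product of Ptprc, removes that inhibitory phosphate. PEP, the product of Ptpn22, and SHP-1, the product of Ptpn6, act against receptor signalling, PEP by removing the activating phosphate of Lck among other substrates. CD8 is a dimer of an alpha chain, from Cd8a, and a beta chain, from Cd8b1, on most peripheral CD8 T cells.

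After 2 h of DSF, Cd8a, Ptpn6 and Pag1 were lower and no member was higher. Pag1 fell by 0.31 on the log2 scale, Cd8a by 0.23 and Ptpn6 by 0.21, that is, to 0.805, 0.852 and 0.865 of the DMSO level. Lck, Fyn, Csk, Ptprc, Ptpn22, Cd8b1 and Cd4 did not pass the test. Calls were made with edgeR's quasi-likelihood test on estimated counts at a Benjamini-Hochberg adjusted p under 0.05 over all 14318 genes tested. The 3 calls among 10 members (30.0%), all of them lower, compare with 22.9% of all genes called in either direction. Called lower were 11.3% of all genes and 16.6% of the genes of at least 20 CPM. The share of members called is thus near that of either direction and above that called lower. The members were chosen with earlier results of these data known, so it cannot be read as an enrichment. The median log2 fold change was -0.08 over the members and -0.003 over all genes tested, and 8 of the 10 values were below 0. The CPM values of the groups (counts scaled to one library size after TMM normalisation) did not overlap in 6 members, all of them lower with DSF, against 35.4% of all genes without overlap in either direction. The same 6 had an unadjusted p under 0.05, against 32.2% of all genes. The count of lower members was 3 with RLE scaling as well and 5 with library totals alone. It was 7 after correction of each library for gene length and GC content. Over all genes, 1621 were lower with TMM, 1731 with library totals alone and 2207 after that correction. With limma on log2(TPM + 1), 513 genes were lower, and Pag1 was not called while Cd8a and Ptpn6 still were.

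**Figure D1:**
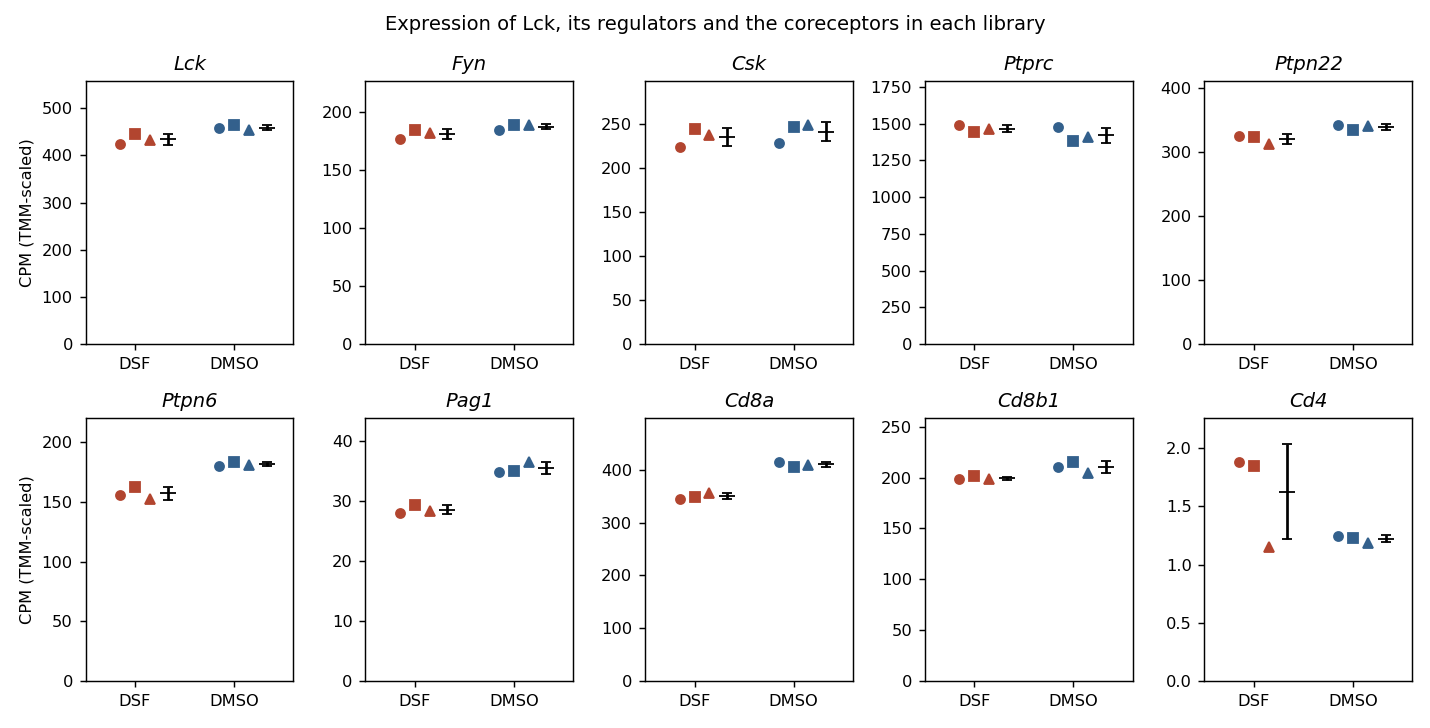
CPM (counts scaled to one library size, linear axis from 0) of the 10 genes in each of the 3 DSF (red) and 3 DMSO (blue) libraries, with circles, squares and triangles for replicates 1, 2 and 3 and a black bar for mean ± SD. The DSF libraries lie below the DMSO libraries without overlap for Lck, Ptpn22, Ptpn6, Pag1, Cd8a and Cd8b1.

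Promoter sequences are shown for Lck, for which RefSeq lists 2 start windows, and for Cd8a and Ptpn6, members that fell by similar amounts. RefSeq's table for GRCm38.p6 held an entry for 7 of the 10 members, in windows of 300 bases that begin 250 bases before the transcript start and are given 5′ to 3′ on the gene's strand. Capitals mark matches, on either strand, to the RUNX-type letters TGTGGT, the ETS-type letters GGAAGT, the SP/KLF-type letters GGGCGG, the TATA box letters TATAAA, and the cAMP response element TGACGTCA.
Lck, upstream start, chr4:129573592-129573891, minus strand: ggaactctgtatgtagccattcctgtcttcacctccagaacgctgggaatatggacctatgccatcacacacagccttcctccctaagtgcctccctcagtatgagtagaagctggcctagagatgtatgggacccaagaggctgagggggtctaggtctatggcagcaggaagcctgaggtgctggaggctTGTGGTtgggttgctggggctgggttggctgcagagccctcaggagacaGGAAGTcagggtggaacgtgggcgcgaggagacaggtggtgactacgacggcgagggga
Lck, downstream start, chr4:129558323-129558622, minus strand: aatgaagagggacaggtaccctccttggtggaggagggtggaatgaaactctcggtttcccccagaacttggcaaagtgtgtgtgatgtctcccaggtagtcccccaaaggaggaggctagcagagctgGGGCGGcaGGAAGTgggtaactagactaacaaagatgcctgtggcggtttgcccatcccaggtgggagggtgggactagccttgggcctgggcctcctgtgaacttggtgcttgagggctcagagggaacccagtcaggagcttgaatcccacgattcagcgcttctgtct
Cd8a, chr6:71373177-71373476, plus strand: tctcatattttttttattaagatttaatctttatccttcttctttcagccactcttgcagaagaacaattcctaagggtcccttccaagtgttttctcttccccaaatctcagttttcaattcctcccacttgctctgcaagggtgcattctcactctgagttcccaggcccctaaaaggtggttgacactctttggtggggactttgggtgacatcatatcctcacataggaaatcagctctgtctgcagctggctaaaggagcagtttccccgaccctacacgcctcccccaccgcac
Ptpn6, chr6:124738660-124738959, minus strand: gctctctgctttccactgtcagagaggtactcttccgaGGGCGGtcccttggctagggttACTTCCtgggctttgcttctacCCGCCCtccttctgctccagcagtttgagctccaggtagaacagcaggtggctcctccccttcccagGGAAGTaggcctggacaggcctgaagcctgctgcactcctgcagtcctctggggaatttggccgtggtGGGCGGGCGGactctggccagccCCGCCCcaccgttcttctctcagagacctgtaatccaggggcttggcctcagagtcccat

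The upstream Lck window held the RUNX letters at position -58 and the ETS letters at -9 relative to the start, and the downstream window the SP/KLF letters at -121 and the ETS letters at -113. The Ptpn6 window held 7 matches, all of them ETS or SP/KLF letters, and 2 of the SP/KLF matches overlap each other. The Cd8a window held none of the 5 motifs, which says only that these letters are not in this window. Among 32851 promoter windows of the same length, 16.8% held the RUNX letters, 23.8% the ETS letters, 35.7% the SP/KLF letters, 13.6% TATAAA and 1.79% the cAMP response element. GC content was 58.3% and 57.3% in the Lck windows, 46.7% in that of Cd8a and 61.7% in that of Ptpn6, against a median of 52.7% over all windows. A match describes the letters and is no evidence of binding.

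Lck (ENSMUSG00000000409) lies on the minus strand of chromosome 4 at 129548344 to 129573641 of GRCm38. It stood at 423, 446 and 433 CPM in DSF libraries and at 458, 464 and 454 CPM in DMSO libraries. The highest DSF library lay below the lowest DMSO library, by a small margin. Means were 434 ± 11.4 CPM with DSF and 459 ± 5.45 CPM with DMSO (SD, n = 3 each), a log2 fold change of -0.08 ± 0.03 (SE) with a 95% interval of -0.15 to -0.02. This missed the threshold of edgeR's test (unadjusted p = 0.017, adjusted p = 0.0685). Its adjusted p ran from 0.00182 to 0.3 over 14 alternative settings and passed in 3 of them. One of its exons shares 25 bases with Mir8119 on the same strand, which had 0 counts in every library.

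Fyn, on chromosome 10, stood at 177, 185 and 182 CPM in DSF libraries and at 185, 189 and 189 CPM in DMSO libraries. The groups overlapped, and the log2 fold change of -0.05 (95% interval -0.12 to 0.02) missed the threshold (edgeR's adjusted p = 0.387). Its direction turned in the TPM values, where limma gave 0.0070 on log2(TPM + 1). Per length, Lck was the more abundant kinase transcript in every library, at 318 ± 9.39 TPM with DSF and 334 ± 4.61 TPM with DMSO, against 76.9 ± 1.42 TPM and 76.5 ± 2.71 TPM for Fyn (SD, n = 3).

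Csk, the inhibitory kinase, did not separate the groups. It stood at 224, 244 and 237 CPM with DSF and at 228, 247 and 249 CPM with DMSO, so that in each group replicate 1 was the lowest library. The log2 fold change was -0.04 with a 95% interval of -0.12 to 0.04 (edgeR's adjusted p = 0.566). The ratio of Lck to Csk within a library, free of its scaling, was 2.91, 2.83 and 2.98 in TPM with DSF and 3.05, 2.85 and 2.95 with DMSO. Those ratios overlapped, and the difference of mean log2 count ratio was -0.04 (exact two-sided permutation p = 0.6, where 3 against 3 libraries cannot go below 0.1).

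Pag1, whose product anchors Csk at the membrane, was the member with the largest fall. It stood at 28.1, 29.4 and 28.3 CPM in DSF libraries and at 34.9, 35.1 and 36.6 CPM in DMSO libraries. All 3 DSF libraries lay below all 3 DMSO libraries, with a log2 fold change of -0.31 ± 0.06 (SE, edgeR's adjusted p = 0.00016). The transcript is scarce beside those of the enzymes, at 4.79 ± 0.28 TPM with DSF and 5.84 ± 0.356 TPM with DMSO (SD, n = 3 each). The call ended with limma on log2(TPM + 1) at a log2 fold change of -0.24 (adjusted p = 0.145), where its adjusted p over 14 alternatives ran from 1.43e-06 to 0.145.

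Ptprc, the gene for CD45 on chromosome 1, was the most abundant member. It stood at 1492, 1444 and 1465 CPM with DSF and at 1478, 1381 and 1407 CPM with DMSO. The groups overlapped through replicate 1 of DMSO, and the log2 fold change of 0.05 (95% interval -0.02 to 0.11) missed the threshold (edgeR's adjusted p = 0.352). Without DMSO replicate 1 the value was 0.07 and passed (edgeR's adjusted p = 0.0458, against 0.0458 to 0.732 over 14 alternatives).

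In deposited TPM the groups of Ptprc did not overlap, at 454, 437 and 444 TPM with DSF and 420, 397 and 421 TPM with DMSO, and limma's log2 fold change was 0.11 (adjusted p = 0.0998). A count divided by its TPM gives, up to one constant per library, the mean effective transcript length that the authors' estimation used. This length was computed after the difference between the scales was seen, with the constant taken from 604 genes with 1 annotated transcript. For Ptprc it was 4429, 4436 and 4398 bases with DSF and 4542, 4577 and 4488 bases with DMSO, lower by 2.52% in the mean and without overlap (exact permutation p = 0.1, the smallest possible). Ptprc encodes CD45 isoforms that differ by alternatively spliced exons in the extracellular part, and 13 transcripts of it are annotated in GENCODE M21. Whether isoform use changed was not tested, nor was any other cause of the difference in length. A change at least as large as that of Ptprc was seen in 37.8% of 10698 genes. Over all 10698 genes, the groups did not overlap in 10.6%. The lengths of Lck, Csk, Ptpn22, Ptpn6, Pag1 and Cd8b1 overlapped between groups, while that of Fyn was 3162 ± 13.6 bases with DSF and 3231 ± 33.7 bases with DMSO, and that of Cd8a 2884 ± 4.7 and 2847 ± 7.85 bases (SD, n = 3 each). Those of Fyn and Cd8a did not overlap, but 42.3% and 54.4% of genes changed at least as much.

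The inhibitory phosphatase genes differed in outcome. Ptpn6, on chromosome 6 at 124720707 to 124738714, stood at 156, 163 and 152 CPM in DSF libraries and at 180.2, 184 and 181 CPM in DMSO libraries. Every DSF library was below every DMSO library, and the log2 fold change was -0.21 ± 0.04 (SE, edgeR's adjusted p = 7.26e-05). Of its 2802 annotated exonic bases, 195 overlap Gm20531 on the opposite strand. Whether counting used strand is not stated, and Gm20531 had at most 6.06 counts in a DSF library and 10.1 in a DMSO library, while Ptpn6 had at least 2810 counts in every library.

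Ptpn22, on chromosome 3, stood at 325, 324 and 312 CPM with DSF and at 342, 334 and 340.5 CPM with DMSO. The groups did not overlap, but the log2 fold change of -0.08 ± 0.03 (SE, 95% interval -0.15 to -0.02) did not pass edgeR's test (unadjusted p = 0.0172, adjusted p = 0.069). It passed in 3 of 14 alternatives, with adjusted p from 0.0179 to 0.341.

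**Figure D2:**
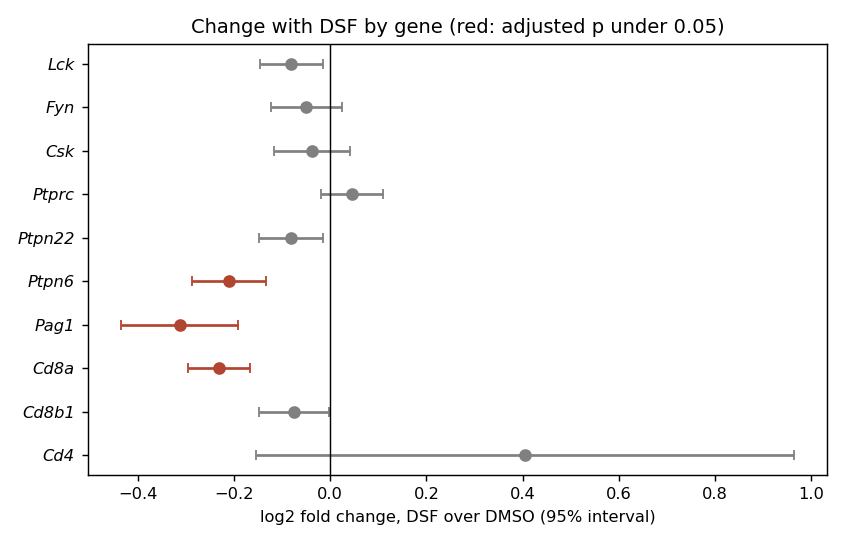
Log2 fold change of each gene, DSF over DMSO, from edgeR with its approximate 95% interval (bars). The called genes Ptpn6, Pag1 and Cd8a (red) have intervals that end at -0.13 or lower, and the interval of Cd4, a gene of 23 to 36 counts per library, runs from -0.15 to 0.96.

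Both CD8 chains were abundant and Cd4 was scarce, in every library of both groups. In TPM, Cd8b1 averaged 203 ± 1.58 with DSF and 210.2 ± 4.94 with DMSO, and Cd8a 163 ± 1.94 with DSF and 189.9 ± 2.99 with DMSO (SD, n = 3 each). Cd4 averaged 0.733 ± 0.204 TPM with DSF and 0.53 ± 0.0173 TPM with DMSO, and its libraries held 34, 36 and 24 counts with DSF and 23, 27 and 24 counts with DMSO. All were above the floor of 3 counts, and replicate 3 of DSF lay within the DMSO range of counts. The log2 fold change of Cd4 was 0.40 with a 95% interval of -0.15 to 0.96 (edgeR's adjusted p = 0.334) and did not pass the test. Without DSF replicate 3 it was 0.61 (edgeR's adjusted p = 0.162, range 0.162 to 0.604 over 12 alternatives).

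Cd8a, on chromosome 6 at 71373427 to 71379173, stood at 345, 348 and 356 CPM in DSF libraries and at 416, 406 and 410.1 CPM in DMSO libraries. The gap between the groups was several times the spread within either, with a log2 fold change of -0.23 ± 0.03 (SE, edgeR's adjusted p = 1.2e-06). Its neighbour Cd8b1, at 71322788 to 71337494 on the same strand, stood at 198, 201 and 199 CPM with DSF and at 210.3, 216 and 204 CPM with DMSO. Those groups also did not overlap, but the log2 fold change of -0.08 ± 0.04 (SE, 95% interval -0.15 to -0.003) did not pass edgeR's test (unadjusted p = 0.042, adjusted p = 0.136, range 0.0535 to 0.384 over 14 alternatives).

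The balance of the CD8 chains was then compared within each library, where scaling drops out. The ratio of Cd8b1 to Cd8a counts was 0.575, 0.577 and 0.558 in DSF libraries and 0.506, 0.531 and 0.498 in DMSO libraries. The lowest DSF ratio exceeded the highest DMSO ratio, and the mean log2 ratio was higher with DSF by 0.16, or by 0.17 in TPM (exact two-sided permutation p = 0.1, the smallest that 3 against 3 libraries allow). With any single library left out the difference stayed between 0.14 and 0.18.

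**Figure D3:**
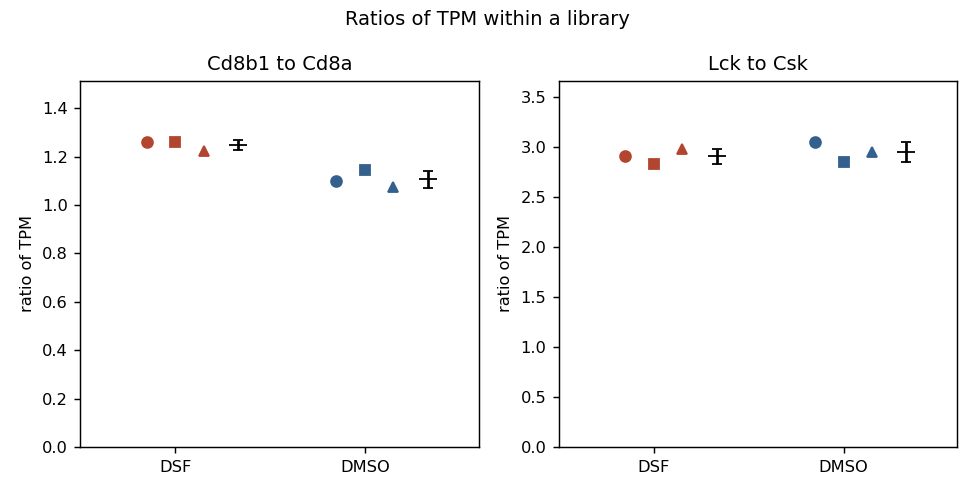
Ratio of TPM within each library for Cd8b1 to Cd8a (left) and Lck to Csk (right), 3 DSF (red) and 3 DMSO (blue) libraries with mean ± SD in black, on linear axes from 0. The Cd8b1 to Cd8a ratio is 1.22 to 1.26 with DSF and 1.07 to 1.15 with DMSO, while the Lck to Csk ratios overlap.

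Ordered by TPM, Ptprc was highest in both groups, followed by Lck and Cd8b1, and Fyn, Pag1 and Cd4 were the lowest in that order. Neighbours in the middle of the order differed between the groups. With DSF, Cd8a at 163 TPM lay below Ptpn22 at 175 TPM in 3 of 3 libraries, and with DMSO the ranges of Cd8a and Ptpn22 overlapped at means of 189.9 and 189 TPM, with Cd8a above in 2 of 3 libraries. The ranges of Csk and Ptpn6 overlapped in both groups, at means of 109.7 and 104 TPM with DSF and 113 and 117 TPM with DMSO, but within a library Csk was above Ptpn6 in 3 of 3 with DSF and below it in 3 of 3 with DMSO. These orders were not tested. All other neighbours in the order were apart in range. Among the 14318 genes tested, Lck ranked 359 by TPM with DSF and 342 with DMSO, and Cd8a ranked 709 and 598.

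Some markers of cell identity moved beside Cd8a. Over all genes tested, 11.3% were lower and 11.6% higher, and these shares stand beside each marker count here and below. The marker lists were chosen with earlier results of these data known, so their counts cannot be read as an enrichment. Of 10 general T cell markers 5 were lower and 1 higher, and their summed level was 3406 to 3448 TPM with DSF and 3623 to 3638 TPM with DMSO. The antigen receptor constant-region genes Trac and Trbc2 were among the lower ones, at 105 ± 3.27 and 466 ± 6.52 CPM with DSF and 125 ± 2.93 and 529.6 ± 10.9 CPM with DMSO, and the adhesion receptor gene Cd2 was higher (edgeR's adjusted p = 3.32e-05, 3.55e-05 and 7.34e-06). The call of Trac ended with limma on log2(TPM + 1), at -0.14 (adjusted p = 0.134, range 7.73e-07 to 0.134). Cd3e, at 218 ± 1.78 CPM with DSF and 229 ± 10.9 CPM with DMSO, did not pass (edgeR's adjusted p = 0.166), except without DMSO replicate 1 (adjusted p = 0.0165, range 0.0165 to 0.8 over 14 alternatives). In bulk RNA, fewer cells of a type and less RNA per cell cannot be told apart, and the part of these markers in the fall of Cd8a was not tested.

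Dendritic cells that carry CD8 alpha without CD8 beta were checked as another source of Cd8a. Of 9 markers 4 were tested, with Xcr1 lower at 5.38 ± 1.09 CPM with DSF and 10.7 ± 1.59 CPM with DMSO, and Batf3 higher (edgeR's adjusted p = 2.73e-06 and 0.000929), and the summed level was 56.7 to 64.0 TPM with DSF and 46.6 to 47.9 TPM with DMSO. Batf3 alone made up 53.0 to 61.0 TPM of that sum with DSF and 41.6 to 43.5 TPM with DMSO. The markers did not go one way. Xcr1 had 76 to 133 counts with DSF and 181 to 253 with DMSO, and Itgax, at 44 to 46 counts with DSF and 45 to 57 with DMSO, and Zbtb46, at 31 to 42 and 13 to 33, did not pass the test. The 5 that were not tested were low, with Clec9a and Cadm1 at no more than 1 count in any library, Tlr3 at no more than 3, Siglech at 0, and Flt3 at 2 to 9 counts with DSF and 4 to 8 with DMSO. The part of such cells in the fall of Cd8a was not tested. Of 7 markers of CD4 and regulatory T cells 4 were tested, with Cxcr5 and Zbtb7b higher and Ikzf2 lower, and a summed level of 30.5 to 32.0 TPM with DSF and 27.2 to 31.0 TPM with DMSO. The call of Ikzf2 ended without DSF replicate 1 (edgeR's adjusted p = 0.0824), and all 3 calls ended with limma on log2(TPM + 1), at an adjusted p of 0.926 for Zbtb7b (range 0.000534 to 0.926), 0.385 for Ikzf2 (range 0.00423 to 0.385) and 0.104 for Cxcr5 (range 0.003 to 0.104). Foxp3 had at most 5.38 counts in a DSF library and 6.63 in a DMSO library, and Il4 was at 0.

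Of 11 B cell markers 10 were tested and Ighm and Igkc were lower, with a summed level of 193 to 202 TPM with DSF and 201 to 219 TPM with DMSO. The call of Ighm ended with limma on TPM and without DSF replicate 3 (edgeR's adjusted p = 0.113, range 0.00131 to 0.28). That of Igkc ended without DSF replicate 2 or 3 or DMSO replicate 2 or 3 (edgeR's adjusted p = 0.142, 0.181, 0.0988 and 0.184, range 0.0304 to 0.184). The call of Igkc also ended with DESeq2, with no filter and with the length and GC trend. Ighm passed in 11 of 14 alternatives and Igkc in 7. Of 6 gamma delta T cell markers 4 were tested, with Trdc lower and Tcrg-C2 and Tcrg-C4 higher, and a summed level of 39.1 to 44.6 TPM with DSF and 38.5 to 40.5 TPM with DMSO. The call of Tcrg-C2 ended without DSF replicate 1 or 2 or DMSO replicate 2 or 3, among other settings (edgeR's adjusted p = 0.0886, 0.109, 0.174 and 0.0799, range 0.00383 to 0.174). That of Tcrg-C4 ended without DSF replicate 1, among other settings (edgeR's adjusted p = 0.0605, range 0.00502 to 0.141). That of Trdc ended with limma on log2(TPM + 1) (adjusted p = 0.103, range 2.78e-05 to 0.103). Of 14 alternatives, Tcrg-C2 passed in 7, Tcrg-C4 in 11 and Trdc in 12. None of the 5 tested myeloid, 2 tested natural killer and 3 tested stromal, endothelial or erythroid markers passed, and their summed levels with DSF were 18.3 to 22.1, 6.78 to 8.62 and 17.3 to 19.8 TPM, against 17.4 to 21.7, 7.17 to 8.04 and 19.4 to 21.2 TPM with DMSO. Pecam1 alone made up 16.37 to 18.25 TPM of the last sum with DSF and 17.89 to 20.05 TPM with DMSO. In the B cell sum, Ighm made up 125 to 131 TPM with DSF and 130 to 141 TPM with DMSO. The part of these cells in the results was not tested.

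Genes around the members were counted in the same way. Across 4 lists of related genes, 28 of 69 tested genes were lower and 6 higher, with a median log2 fold change of -0.08. Lower genes thus made up 40.6% of the lists, against 11.3% of all genes and 16.6% of the 7348 genes of at least 20 CPM, while higher genes made up 8.7% against 11.6%. With limma on log2(TPM + 1) the counts were 15 lower and 3 higher. The lists were chosen with earlier results of these data known, so these shares cannot be read as an enrichment.

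Of 30 further regulators of Src-family kinases, 13 were lower and 3 higher. Lax1, the gene of a membrane adaptor that restrains receptor signalling, stood at 94.8, 98.6 and 96.7 CPM with DSF and at 157, 160.3 and 166 CPM with DMSO, a log2 fold change of -0.73 ± 0.04 (SE, edgeR's adjusted p = 3.56e-15). Ubash3a, the gene of a suppressor of T cell receptor signalling, was at 60.0 ± 1.18 CPM with DSF and 96.6 ± 6.9 CPM with DMSO. Sh2d2a, the gene of the Lck-binding adaptor TSAd, fell to 269 ± 5.47 CPM with DSF, against 355 ± 9.92 CPM with DMSO (edgeR's adjusted p = 6.19e-11, and 3.76e-12 for Ubash3a). Chosen after their values were seen, the ubiquitin ligase gene Cblb and the phosphatase gene Ptpn7 were lower as well, at log2 fold changes of -0.35 and -0.39 (edgeR's adjusted p = 1.66e-09 and 2.64e-10).

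The 3 regulators that were higher are also named after their values were seen. Themis, which encodes a T cell protein that binds SHP-1, was at 119 ± 6.91 CPM with DSF and 97.9 ± 4.25 CPM with DMSO. Ptpn4, a phosphatase gene, and Zdhhc21, the gene of a palmitoyltransferase for Lck, had log2 fold changes of 0.20 and 0.15 (edgeR's adjusted p = 0.00366 and 0.0103). The call of Zdhhc21 ended without DMSO replicate 2 or DSF replicate 1 (adjusted p = 0.0624 and 0.105) and, like that of Ptpn4, with limma on TPM, over ranges of 2.73e-05 to 0.208 and 0.000395 to 0.357.

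None of 5 tested Src-family kinase genes other than Lck and Fyn passed at an adjusted p under 0.05, where Lyn, the most abundant, was at 19.3 ± 1.4 CPM with DSF and 17.7 ± 0.136 CPM with DMSO. Among 19 substrates and signalling partners of Lck, 8 were lower and 2 higher. Cd3d, Cd3e, Cd3g, Cd247, Cd2, Cd5 and Cd6 were also counted among the T cell markers above, so the tallies share these genes. Vav1, an exchange factor gene, and Grap2, the gene of the adaptor GADS, fell by 0.34 and 0.28 on the log2 scale (edgeR's adjusted p = 4.68e-07 and 7.23e-07). The call of Grap2 ended with limma on log2(TPM + 1) (adjusted p = 0.0895, range 5.65e-12 to 0.0895). The higher ones were Cd2 and the costimulatory receptor gene Cd28, with log2 fold changes of 0.23 each. Zap70, the kinase gene next in the cascade, was at 190.1 ± 3.53 CPM with DSF and 193 ± 8.46 CPM with DMSO and did not pass (edgeR's adjusted p = 0.767).

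Of 15 factors that act on the Cd4 and Cd8 loci or in T cell identity, 7 were lower and 1 higher. Runx3, which in mouse T cells silences Cd4 and activates Cd8a, was at 267, 294 and 279 CPM with DSF and 310, 338 and 338 CPM with DMSO, a log2 fold change of -0.23 ± 0.04 (SE, edgeR's adjusted p = 4.85e-05). Zbtb7b, the gene of the CD4-lineage factor ThPOK, was the higher one, at 30.4 ± 1.75 CPM with DSF and 25.2 ± 1.72 CPM with DMSO (edgeR's adjusted p = 0.00307). Both calls ended with limma on log2(TPM + 1), at -0.09 for Runx3 (adjusted p = 0.503, range 9.73e-10 to 0.503) and 0.03 for Zbtb7b (adjusted p = 0.926, range 0.000534 to 0.926). Myb, Lef1 and Ikzf1, transcription factor genes of T cell development, fell by 0.58, 0.45 and 0.19 on the log2 scale (edgeR's adjusted p = 3.87e-11, 1.01e-08 and 2.7e-05). Lef1, Lyn, Myb, Zbtb7b, Cd3e, Cxcr5, Foxp3, Ikzf2, Trdc and Themis share exonic bases with an opposite-strand gene, and reads from such a pair cannot be told apart unless counting used strand. Among genes counted as lower in the lists, Ptprcap shares 1224 of 1611 exonic bases with Rps6kb2 and Cd247 3007 of 5329 with Pou2f1, both opposite-strand. Lime1, also counted as lower, shares 2132 of 2304 with Zgpat on the same strand. Overlaps of other counted genes are not listed.

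**Figure D4:**
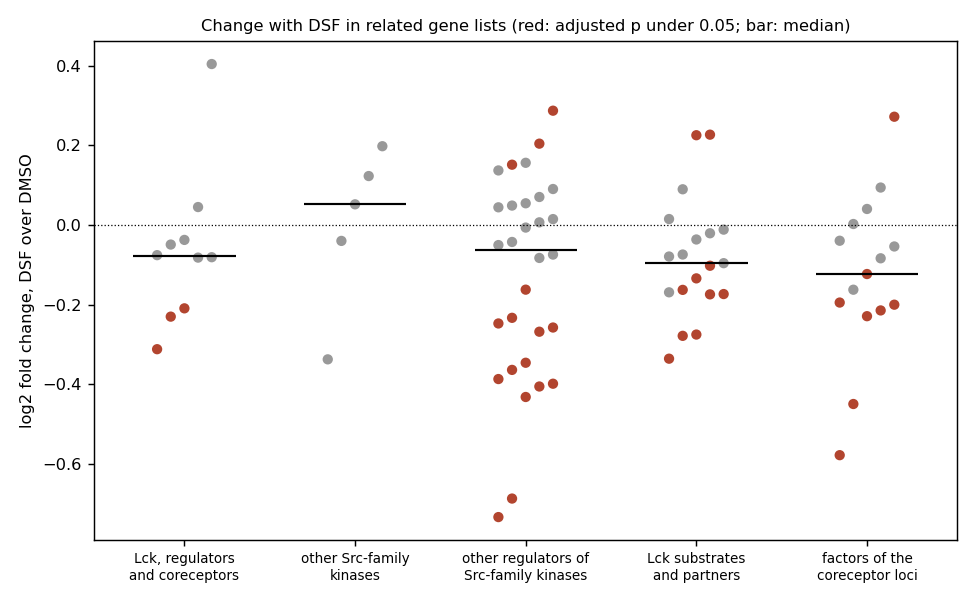
Log2 fold change, DSF over DMSO, of the 10 members and of the tested genes of 4 related lists (5, 30, 19 and 15 genes), with each point a gene, red for an adjusted p under 0.05 and a black bar for the median. The lowest points are Lax1 and Ubash3a among the regulators, and each list but that of other Src-family kinases has a median below 0.

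By the root mean square difference of log2 CPM deviations over the 6 libraries, among 7348 genes of at least 20 CPM, the genes most like Lck were Prelid3b, Eif3i and Casp2, at 0.0067, 0.0096 and 0.011. None of these passed edgeR's test, at adjusted p from 0.188 to 0.286. The genes most like Cd8a were Lap3, Prnp and Imp4, at 0.016, 0.017 and 0.018, all of them lower with DSF, at log2 fold changes of -0.25, -0.23 and -0.24 (edgeR's adjusted p = 0.000212, 0.00844 and 0.000116). Genes chosen for likeness to Lck or Cd8a over these libraries had to share that member's direction and about its size of change. Neither the direction nor the p-values of these genes are thus a finding. The calls of Lap3 and Prnp ended with limma on log2(TPM + 1) (adjusted p = 0.168 and 0.0701, over ranges of 3.91e-05 to 0.168 and 0.00393 to 0.0701).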

How the data were processed

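Per the labels' protocols, 1 µg of total RNA went into each SMARTER mRNA library, and the genome build is GRCm38 (mm10), per the submitters' processing notes. Not given in the sources used here: aligner, counting program, strandedness. The authors deposited estimated counts per gene and library, of which 12.1 to 12.9% are not whole, TPM per library, and their own log2 fold changes, linear fold ratios and p-values, per the file headers, in a table titled as DESeq2 output. Treatments are named in no column. The authors' mean TPM headed DF equals the mean of the 3 B columns, and that headed DO the mean of the 3 A columns, in all 55536 genes within 0.0001 TPM, and the numbers were read as replicate numbers. The number of unused columns of library values is 0.

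Since whole counts had been assumed in the design, the estimated counts were rounded. Genes were filtered with filterByExpr (14318 kept), scaled by TMM and tested by the quasi-likelihood F test of edgeR 4.0.16 (robust, R 4.3.3) with group as the only term. Standard errors and intervals are approximate, from the log2 fold change over the root of the F statistic. Ratios were tested by exact permutation (scipy 1.17.1). Alternatives used RLE or no scaling, DESeq2 1.42.0, no filter, a replicate block, a length and GC trend, limma 3.58.1 on log2(TPM + 1) and log2(TPM + 0.1) for genes of at least 1 TPM, and each library left out. Depth was 18082264 to 21893720 counts, and a floor of 3 counts, worth 0.137 to 0.166 CPM, covers counting error only. Replicate libraries differed by more than counting error (chi-square per degree of freedom 2.22 to 4.28). The scripts were tested on simulated data. Gene positions came from GENCODE M21. All members are named, with the 3 called genes of smallest p of each list, a few fixed genes, and for Lck and Cd8a the 3 genes most like them. Some genes that this rule names are not reported here. Members, lists and rules were chosen with earlier results of these data known.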

Additional observations from a re-analysis of the deposited data

How the results depend on the processing

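Of 138 values of the 10 members under 14 alternatives, 125 kept their direction and their side of the threshold. Cd4 gave no value in limma on TPM, where it lies under the filter. Limma on log2(TPM + 0.1) and on log2(TPM + 1) called fewer genes, with 770 and 746 higher and 520 and 513 lower, against 1655 and 1621 by edgeR. Under both it called 3 of the listed pathway genes higher and 15 lower, left Pag1 at -0.28 and -0.24 without a call, and turned Fyn to 0.0071 and 0.0070 and Zap70 to 0.016 and 0.016; the cause was not tested. With library totals only, 5 members and 1731 of all genes were lower, with Lck at -0.089 and Ptpn22 at -0.090 now past the threshold. With the length and GC trend 7 members and 2207 of all genes were lower. Lck at -0.10, Csk at -0.078, Fyn at -0.082 and Ptpn22 at -0.078 were now past the threshold. The cause was not tested.

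Leaving out 1 library gave 3 lower and 0 to 1 higher members, log2 fold changes of -0.10 to -0.06 for Lck, -0.24 to -0.22 for Cd8a, 0.024 to 0.075 for Ptprc and -0.046 to 0.014 for Zap70, and 1334 to 1595 higher and 1231 to 1432 lower genes. The labels do not say that same-numbered libraries are paired. Those libraries correlated at 0.0454, 0.0349 and 0.0547 in their deviations, each the best match of that library as a hint from the data. With the number as a block, 5 members and 1904 of all genes were lower, with Lck at -0.081 and Ptpn22 at -0.082 among the members. Of 518 values of the other named genes, 45 lost their call, 2 gained one and 3, all of Zap70, turned. Depth limits Cd4, at 23 to 36 counts.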

Other observations

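The authors' deposited table also compares a group coded DC, a code the labels do not explain and of which no library was analysed here. In the authors' deposited table, the log2 fold changes of DC over DF were 0.34 for Pag1, 0.15 for Cd8a, 0.15 for Ptpn6, 0.10 for Fyn and -0.09 for Ptprc, the 5 members with an adjusted p under 0.05. Those of DF over DO in the authors' deposited table were -0.31 for Pag1, -0.23 for Cd8a and -0.21 for Ptpn6, and 0 of the 10 members had an adjusted p under 0.05 for DC over DO. The share of all genes passing in the comparisons with DC was not counted, so these member counts say nothing particular to the members. The comparisons share the DF or the DO libraries, so opposite signs are no independent support. The authors marked 0 members significant in any of these comparisons, and for DF over DO the genes they did mark had an absolute log2 fold change of at least 1.0 in the authors' deposited table.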
